A study of Mus musculus with 6 samples.

Results

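The subject is the family of myosin light chain genes in the embryonic mouse heart ventricle, described across 6 RNA sequencing libraries. The 10 genes were given as a named list of skeletal, ventricular, atrial and smooth or non-muscle light chains, and they were matched by symbol in GENCODE M21, an annotation of GRCm38 (mm10). All 10 were found among 54532 gene IDs in the table, and all 10 averaged at least 0.5 FPKM and so belonged to the 14149 genes tested. FPKM is a read level scaled to exon length and library size. There were 3 libraries of ventricles labelled LSD1CKO, in which Kdm1a, encoding the histone demethylase LSD1, is conditionally deleted, and 3 libraries of control ventricles. Both groups were taken at E12.5. The labels name neither the Cre driver, nor the strain, nor whether the replicates came from separate or pooled embryos, so p-values measure the spread between these libraries, which may be technical in part.

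Each myosin motor is built from heavy chains, and the lever arm of each heavy chain carries an essential and a regulatory light chain. The regulatory chain can be phosphorylated by light chain kinases, which tunes the motor in striated muscle and switches it on in smooth muscle and non-muscle cells. Different muscles use different pairs: fast skeletal muscle uses Mylpf and Myl1, ventricles use Myl2 and Myl3, and atria use Myl7 and Myl4, while Myl9, Myl12a and Myl6 serve smooth muscle and non-muscle cells. In the mouse embryo the atrial chains are also made in ventricles early on.

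The pair of skeletal light chain genes rose in the knockout, and their promoters are shown because these were the members that moved together. Both sequences are from RefSeq (GRCm38.p6), 5′ to 3′ in the direction of the gene, and capitals mark matches to the E-box motif CANNTG, which was searched on both strands and reads the same on both. The Mylpf stretch is chr7:127211358-127211607 on the plus strand, the 250 bases before the start. The Myl1 stretch is chr1:66945144-66945290 on the minus strand, bases -234 to -88 from the RefSeq start. Both stretches lie inside the GENCODE gene spans, between exons of longer transcripts, and the Myl1 stretch was trimmed at both ends to hold no exon base.
Mylpf: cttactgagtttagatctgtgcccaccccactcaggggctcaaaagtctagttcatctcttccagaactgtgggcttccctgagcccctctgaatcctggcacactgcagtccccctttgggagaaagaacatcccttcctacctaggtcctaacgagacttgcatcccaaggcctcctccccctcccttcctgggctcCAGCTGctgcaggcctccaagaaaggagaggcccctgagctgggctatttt
Myl1: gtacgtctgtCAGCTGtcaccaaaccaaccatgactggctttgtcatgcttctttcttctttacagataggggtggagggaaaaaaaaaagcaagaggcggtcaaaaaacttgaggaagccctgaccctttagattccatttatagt
Each window held 1 E-box, at base -51 for Mylpf and at base -224 for Myl1, and in both the letters were CAGCTG. The motif was not limited to them, since 8 of the 10 members had an E-box in at least 1 promoter window. CAGCTG was found for 4, Mylpf, Myl1, Myl2 and Myl12a. Myl2 and Myl6 have more than 1 window, so these counts are per gene, while the percentages below are per promoter. An E-box of any kind was found in the 250 bases before the start of 66.2% of 32851 RefSeq promoters, and CAGCTG, a form noticed only after the matches were seen, in 13.0% of them. No match to the MEF2, the CArG or the GATA motif was found in either window, against 1.69%, 1.47% and 9.99% of all promoters. At such rates a lack of matches in 2 windows says little. CArG was found for 4 of the 10 members, Myl3, Myl6, Myl7 and Myl9. A match to the TATA box motif was found for Myl1, at base -95, and in 12.4% of all promoters. The table holds a Myl1 promoter for the long form only, and the gene value does not separate the short form, which starts within the gene.

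Whole reads recovered from the FPKM values summed to between 17896745 and 19309100 per knockout library and between 18389541 and 20073978 per control library, and a single read in 1 kb equalled 0.0515 to 0.0562 FPKM. Kdm1a stood at 10.7, 11.8 and 11.0 FPKM in the knockout libraries and at 29.99, 29.7 and 22.8 FPKM in the control libraries, without overlap (log2 change -1.22, SE 0.11, limma adjusted p = 0.00274). Knockout replicate 3 had 12.1 FPKM of Xist and no read of 4 Y-linked genes, while the other 5 libraries had reads of them, so genotype and sex were not balanced. Knockout replicate 1 had 1.11 FPKM of Xist beside its Y-linked reads, against at most 0.0125 FPKM in the 4 other libraries with Y-linked reads. Mitochondrially encoded RNA took 9.03% of the FPKM sum in control replicate 3 and 4.64% to 7.10% in the other 5 libraries. All 7 cardiomyocyte markers and all 4 ventricular markers were detected in every library. In bulk tissue, fewer cells of a type and less RNA per cell cannot be told apart.

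Of the 10 light chain genes, 2 rose in the knockout and 0 fell, with 1, Myl6, lower at an unadjusted p under 0.05. The threshold was an adjusted p of 0.05 (limma, Benjamini-Hochberg over all 14149 genes), which 2.37% of tested genes passed, 1.91% higher and 0.466% lower. The median log2 change of the 10 genes was -0.05, against -0.01 for all tested genes, close to the centre of the table. The groups did not overlap for 3 of the 10, Mylpf and Myl1 above and Myl6 below, where 21.4% of tested genes had groups that did not overlap (11% above and 10.4% below). The summed FPKM of the 10 genes was 9051 ± 407 in knockout and 9241 ± 820 in control ventricles (SD, n = 3 each), a ratio of 0.979.

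**Figure D1:**
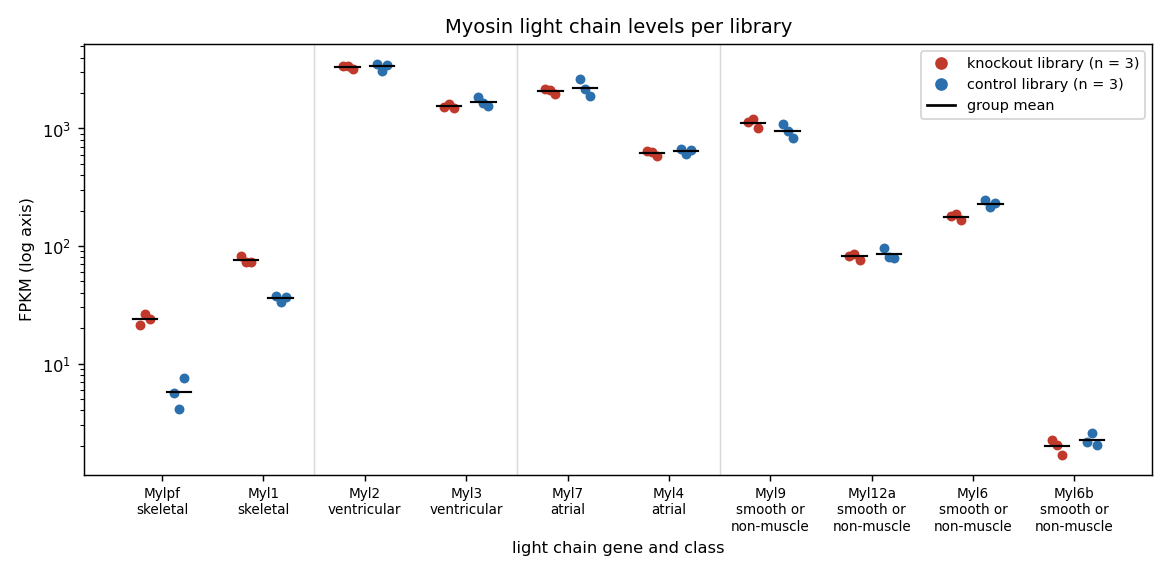
FPKM of the 10 light chain genes on a log axis, with 1 point for each of 3 knockout libraries (red, left) and 3 control libraries (blue, right) and a bar at the group mean. The Mylpf and Myl1 points of the knockout lie above all their control points, the Myl6 points lie below, and the ranges of the other 7 genes overlap.

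Mylpf encodes the regulatory light chain of fast skeletal muscle. Its level was 21.4, 26.3 and 23.8 FPKM in the knockout libraries, against 5.66, 4.13 and 7.51 FPKM in the control libraries. The lowest knockout library lay well above the highest control library, which was control replicate 3. The means were 23.8 ± 2.47 FPKM in knockout and 5.77 ± 1.69 FPKM in control ventricles (SD, n = 3 each), a ratio of 4.13. On the log2(FPKM + 1) scale, which understates the change of low genes, the difference was 1.90 (SE 0.17, 95% interval 1.501 to 2.30, limma adjusted p = 0.00274). These values rest on 411, 543 and 451 reads in knockout and 111, 78 and 154 reads in control libraries. Mylpf lies on chromosome 7 from 127208890 to 127214298 on the plus strand, no exon base is under another gene, and no 50-base stretch of its transcripts recurs in a transcript of another gene. The call held in each of the 6 fits that left out 1 library, including the one without knockout replicate 3, with adjusted p between 0.00238 and 0.0173.

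Myl1 encodes the essential light chain of fast skeletal muscle and is also made in the embryonic heart. It stood at 81.6, 73.3 and 73.6 FPKM in the knockout libraries, against 37.7, 33.5 and 36.9 FPKM in the control libraries. The 3 libraries of each group lay close together, with a wide gap between the groups. The means were 76.2 ± 4.71 FPKM in knockout and 36.0 ± 2.20 FPKM in control ventricles (SD, n = 3 each), which is 2.11-fold. The log2 change was 1.06 (SE 0.07, 95% interval 0.88 to 1.23, limma adjusted p = 0.00125). Leaving out 1 library at a time kept the adjusted p between 0.00375 and 0.00922. The gene is on the minus strand of chromosome 1, between 66924295 and 66945404.

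Some reads of Myl1 can also fit a processed pseudogene, Mylf-ps, on the minus strand of chromosome 12, bases 101221997 to 101222417. Its 421 bases aligned to a Myl1 transcript without a gap and with 3 mismatches, and 65.1% of its 50-base stretches are also in Myl1. Seen from Myl1, 11.7% of the 50-base stretches of its transcripts recur in Mylf-ps. A stretch of 60 bases from each GENCODE M21 transcript, coding in Myl1, shows how close they are. The only base that differs is in capitals. The stretch covers bases 174 to 233 of that Myl1 transcript and bases 70 to 129 of Mylf-ps.
Myl1: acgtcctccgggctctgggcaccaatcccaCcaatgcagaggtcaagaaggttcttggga
Mylf-ps: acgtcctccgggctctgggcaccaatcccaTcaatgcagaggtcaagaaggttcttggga
Mylf-ps stood at 24.4, 16.8 and 21.01 FPKM in the knockout libraries, against 6.43, 6.01 and 8.74 FPKM in the control libraries, and the groups did not overlap (log2 change 1.43, SE 0.16, limma adjusted p = 0.00609). In reads, it had 186, 137 and 158 in knockout and 50, 45 and 71 in control libraries. That was 6.08, 4.65 and 5.80 reads per 100 Myl1 reads in knockout and 3.46, 3.63 and 4.81 in control libraries, with knockout replicate 2 below control replicate 3. How much of the Mylf-ps signal is read overflow from Myl1 was not tested. With the Mylf-ps reads added to Myl1, the ratio of the Myl1 shares described below was 2.18, against 2.15 without them.

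**Figure D2:**
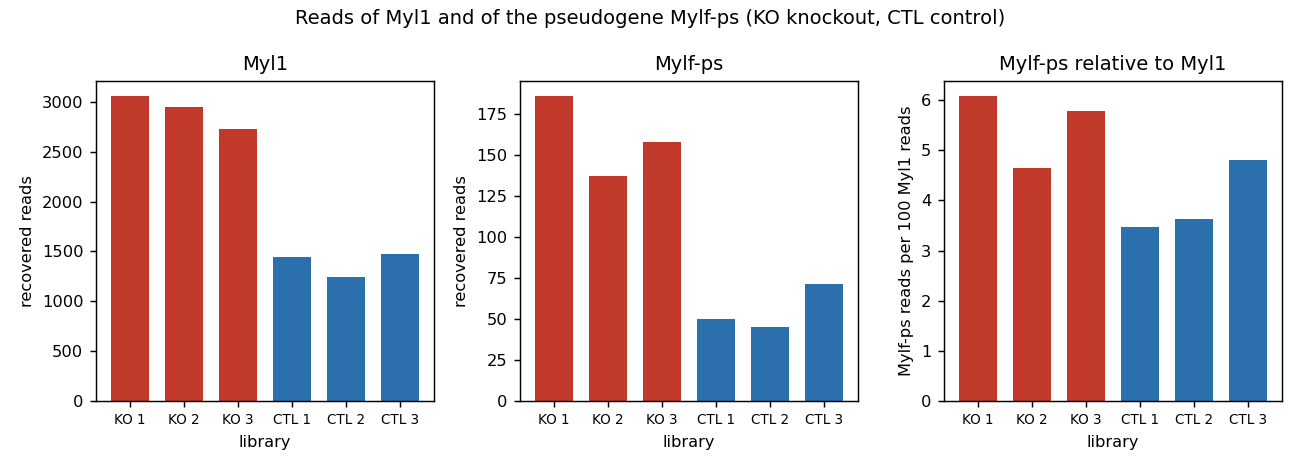
Bars give recovered reads of Myl1, recovered reads of the pseudogene Mylf-ps, and Mylf-ps reads per 100 Myl1 reads in each knockout (red) and control (blue) library. Both read counts are higher in every knockout library, with Myl1 at 2726 to 3058 reads in knockout and 1238 to 1477 in control libraries, while the ratios of the groups overlap.

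Other skeletal muscle markers gave no call. Of 12 skeletal muscle markers, 4 were expressed highly enough to be tested and 0 were called by limma in either direction, with 1, Actn3, at an unadjusted p under 0.05. The summed level of the list was 63.1 to 65.0 FPKM in knockout and 59.4 to 67.3 FPKM in control libraries. Most of it came from the creatine kinase gene Ckm, which averaged 55.6 FPKM in knockout and 55.9 FPKM in control ventricles. The sum therefore says little about the other markers of the list. The myogenic factor Myog stood at 0.666, 0.483 and 0.150 FPKM in knockout and 0.0725, 0.376 and 1.35 FPKM in control libraries. Myod1 was at 0 in 4 of the 6 libraries, with 0.119 FPKM in knockout replicate 1 and 0.251 FPKM in control replicate 3. Actn3, the fast fibre actinin, was at 6.58, 4.88 and 4.80 FPKM in knockout and 4.76, 3.05 and 3.13 FPKM in control libraries (limma adjusted p = 0.208), so its groups were separated by a narrow gap. The part of skeletal muscle cells in the light chain values was not tested.

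The ventricular light chains did not pass the test, although Myl2 was the most abundant of the family. Myl2 (chr5:122100951-122113472, plus strand), the ventricular regulatory chain, stood at 3372, 3375 and 3204 FPKM in knockout and 3567, 3096 and 3461 FPKM in control libraries, and the knockout range lay inside the control range. Its log2 change was -0.02 (95% interval -0.28 to 0.24, limma adjusted p = 0.945). Myl3 (chr9:110741861-110769798, plus strand), the ventricular essential chain, stood at 1524, 1627 and 1493 FPKM in knockout and 1858, 1641 and 1557 FPKM in control libraries. Its log2 change was -0.12 (95% interval -0.36 to 0.13, limma adjusted p = 0.630). Both intervals leave out changes as large as that of Myl1. Of the 4 ventricular markers, Hand1, a transcription factor, rose (29.0, 24.9 and 27.9 FPKM in knockout, 14.3, 12.9 and 12.3 FPKM in control libraries, limma adjusted p = 0.00208). Hey2, a repressor in compact ventricular muscle, did not pass the test, at 23.1, 23.8 and 22.4 FPKM in knockout and 33.1, 33.4 and 23.0 FPKM in control libraries (limma adjusted p = 0.278). At an unadjusted p under 0.05 (limma) there were 2 of the 4, Hand1 higher and Hey2 lower. The summed level of the list was 491 to 537 FPKM in knockout and 384 to 638 FPKM in control libraries. Most of it came from the heavy chain gene Myh7. The part of the list in the light chain values was not tested.

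The atrial light chains did not pass the test either, and the signs of the small changes of Myl2, Myl3, Myl7, Myl4 and Myl12a turned under other scalings. Myl7 (chr11:5896637-5898782, minus strand), the atrial regulatory chain, stood at 2167, 2145 and 1953 FPKM in knockout and 2628, 2152 and 1894 FPKM in control libraries, the control libraries being the more scattered. Its log2 change was -0.08 (95% interval -0.40 to 0.24, limma adjusted p = 0.831). Myl4 (chr11:104550663-104595753, plus strand), the atrial and embryonic essential chain, stood at 637, 632 and 585 FPKM in knockout and 666, 603 and 650 FPKM in control libraries, with a log2 change of -0.05 (95% interval -0.24 to 0.14, limma adjusted p = 0.821). Of 6 other atrial markers, Dkk3 rose (22.01, 25.2 and 30.4 FPKM in knockout, 13.8, 16.1 and 14.1 FPKM in control libraries, limma adjusted p = 0.0195) and 0 fell. At an unadjusted p under 0.05 there were 3: Dkk3, Nr2f2 on the higher side (limma adjusted p = 0.102) and Sln on the lower side. Sln, which encodes sarcolipin, stood at 5.37, 4.73 and 6.16 FPKM in knockout and 6.58, 9.47 and 6.96 FPKM in control libraries, without overlap (limma adjusted p = 0.187). The summed level of the list was 48.3 to 55.3 FPKM in knockout and 37.9 to 44.5 FPKM in control libraries. Without Dkk3 it was 24.9 to 26.6 FPKM in knockout and 23.8 to 28.3 FPKM in control libraries, and its part in the light chain values was not tested.

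Among the smooth muscle and non-muscle chains 0 of 4 passed the test. Myl6 (chr10:128490860-128494145, minus strand), the essential chain of smooth muscle and non-muscle myosin, came nearest, at 180, 188 and 165 FPKM in knockout and 244, 214 and 230 FPKM in control libraries. The groups did not overlap, and the ratio of means was 0.774 (log2 change -0.37, SE 0.08, 95% interval -0.56 to -0.18, limma adjusted p = 0.0732). The adjusted p was 0.0902 to 0.243 when 1 library was left out and 0.0689 to 0.155 under the other settings. Myl6 shares 8.38% of its 50-base stretches with 5 annotated pseudogenes. The pseudogene Gm10080, named here after its values were seen, stood at 7.96, 6.59 and 7.80 FPKM in knockout and 11.999, 9.62 and 13.1 FPKM in control libraries (limma adjusted p = 0.0581). The groups overlapped for Gm5526, Gm8894 and Gm5915 (limma adjusted p = 0.746, 0.806 and 0.941). Gm11836, with 1 to 7 reads per library, was too low to be tested.

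Myl9 (chr2:156775420-156781658, plus strand), the smooth muscle regulatory chain, differed the other way without passing the test. It stood at 1144, 1200 and 1011 FPKM in knockout and 1082, 959 and 831 FPKM in control libraries, so that only knockout replicate 3 lay inside the control range. The log2 change was 0.23 (95% interval -0.06 to 0.52, limma adjusted p = 0.411). Of 7 smooth muscle markers 5 were tested and 0 were called by limma, 0 also at an unadjusted p under 0.05. The summed level of the list was 1073 to 1257 FPKM in knockout and 860 to 1431 FPKM in control libraries. Most of it came from the actin gene Acta2, at 752 to 1265 FPKM across the 6 libraries. Myh11 and Lmod1 were too low to be tested. They averaged 0.157 and 0.586 FPKM in knockout and 0.0743 and 0.305 FPKM in control ventricles. Myl12a (chr17:70993656-71002878, minus strand), a regulatory chain of non-muscle myosin, stood at 82.5, 85.9 and 76.6 FPKM in knockout and 97.0, 79.9 and 78.8 FPKM in control libraries (limma adjusted p = 0.829). Exons of Myl12b and Myom1 cover 19.9% of its exon bases, and 21.1% of its 50-base stretches recur in other genes, so its level is uncertain. Myl6b (chr10:128494157-128498685, minus strand), an essential chain encoded next to Myl6, stood at only 2.22, 2.04 and 1.67 FPKM in knockout and 2.14, 2.56 and 2.02 FPKM in control libraries (limma adjusted p = 0.616).

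**Figure D3:**
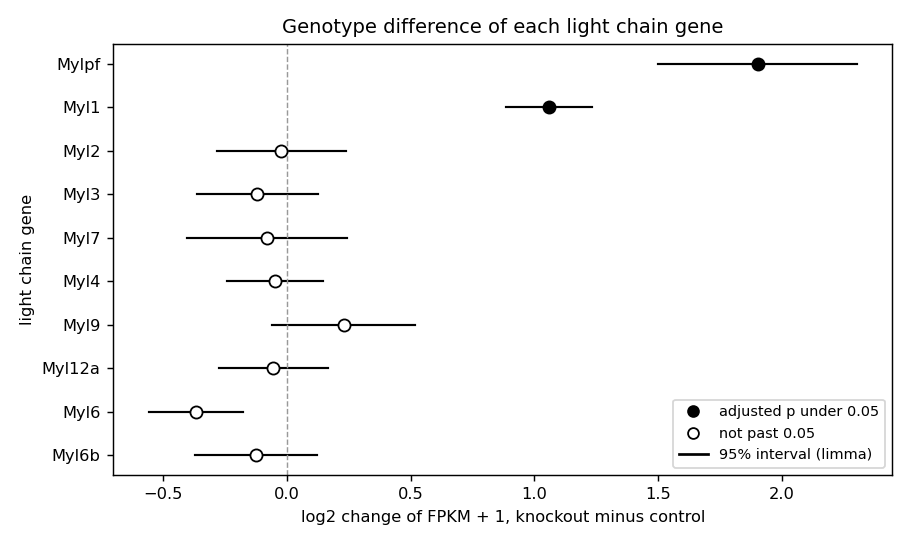
Log2 change of FPKM + 1, knockout minus control, for the 10 light chain genes (points), with the 95% limma interval (lines, n = 3 each); filled points have an adjusted p under 0.05. Mylpf at 1.90 and Myl1 at 1.06 are filled, Myl6 at -0.37 has an interval below 0 but an adjusted p of 0.0732, and the intervals of the other 7 cross 0.

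Shares of the summed light chain FPKM show how small the skeletal part remained. Mylpf made up 0.233%, 0.282% and 0.277% of the sum in knockout and 0.0556%, 0.0470% and 0.0859% in control libraries. Myl1 made up 0.886%, 0.783% and 0.857% in knockout and 0.370%, 0.382% and 0.422% in control libraries. Together the skeletal chains took 1.11% ± 0.04 of the sum in knockout and 0.454% ± 0.046 in control ventricles (SD, n = 3 each), a ratio of 2.44. A two-sided exact permutation test gave p = 0.1 for the Mylpf share and for the Myl1 share, the smallest p that 3 against 3 libraries allow, so none of the 10 shares compared could have passed 0.05. When all libraries were rescaled to the same light chain sum and all genes refitted, Mylpf and Myl1 were still called, and 0 light chain genes were called lower.

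The shares of the 2 most abundant chains by FPKM overlapped between the groups. Myl2 made up 36.7% ± 0.62 in knockout and 36.6% ± 2.56 in control ventricles, and Myl7 made up 23.1% ± 0.41 in knockout and 24.0% ± 2.12 in control ventricles (SD, n = 3 each). Within the pair of striated regulatory chains, Myl2 was 61.4% ± 0.66 of Myl2 plus Myl7 in knockout and 60.4% ± 3.73 in control ventricles. Within the essential pair, Myl3 was 71.5% ± 0.83 of Myl3 plus Myl4 in knockout and 72.4% ± 1.66 in control ventricles (SD, n = 3 each). For both pairs the groups overlapped, and the exact permutation p was 0.8 for Myl2 and 0.4 for Myl3. Regulatory chains as a whole took 73.2% ± 0.38 of the sum in knockout and 71.9% ± 0.46 in control ventricles (SD, n = 3 each), without overlap.

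In all, 5 of the 10 shares did not overlap between the groups, against 16.4% of all tested genes when their levels were divided by the same light chain sum. Outside the skeletal chains these were Myl9, Myl6 and Myl3. Myl9 took 12.3% ± 0.53 in knockout and 10.3% ± 0.75 in control ventricles, Myl6 1.96% ± 0.04 in knockout and 2.49% ± 0.13 in control ventricles, and Myl3 17.1% ± 0.49 in knockout and 18.2% ± 0.44 in control ventricles (SD, n = 3 each). The exact permutation p was 0.1 for each. Shares within 1 sum are tied to each other, so a gain of 1 member lowers the others.

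**Figure D4:**
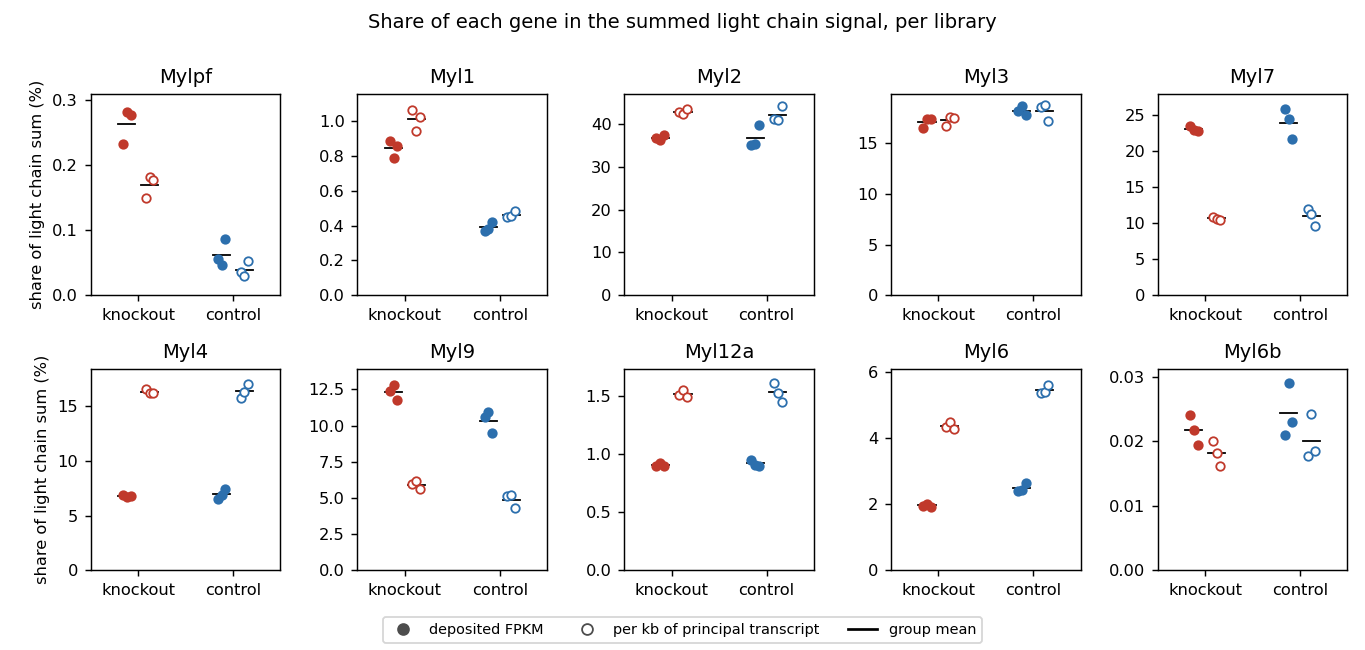
Share of each gene in the summed light chain signal in percent, with knockout libraries (red) left of control libraries (blue) and bars at the group means; filled points use the deposited FPKM and open points the same reads per kb of principal transcript. The Mylpf, Myl1 and Myl9 shares are higher and the Myl6 shares lower in every knockout library on both scales. The level of the Myl7, Myl4, Myl9 and Myl6 shares depends strongly on the scale in both groups.

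The length used to scale a gene changed the order of the chains more than the genotype did. The deposited FPKM divide by the exon bases of all annotated transcripts of a gene, and this length was 5.15 times the principal transcript for Myl4 and 4.79 times for Myl6, against 1 for Myl7. In the deposited FPKM the order was Myl2, Myl7, Myl3, Myl9, Myl4, Myl6, Myl12a, Myl1, Mylpf and Myl6b in both groups, and only Myl12a and Myl1 in the knockout were neighbours whose ranges overlapped. Per kb of principal transcript, Myl2 led in both groups, followed by Myl3 and Myl4, whose ranges overlapped, and then by Myl7. On that scale Myl4 reached 3183 ± 149 in knockout and 3296 ± 167 in control ventricles, and Myl7 2088 ± 117 in knockout and 2225 ± 373 in control ventricles (SD, n = 3 each). Myl9 then ranked above Myl6 in the knockout, and Myl6 above Myl9 in the control, where their ranges overlapped. This alternative was chosen after seeing the data.

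On the principal transcript scale the skeletal share was 1.18% ± 0.05 in knockout and 0.501% ± 0.031 in control ventricles (SD, n = 3 each), a ratio of 2.35. The Myl1 share stayed at 2.18 times and the Mylpf share at 4.27 times that of the control. The smooth or non-muscle class did not keep its difference: it was 15.2% ± 0.59 in knockout and 13.8% ± 0.64 in control ventricles by deposited FPKM, but 11.8% ± 0.42 in knockout and 11.9% ± 0.40 in control ventricles per kb of principal transcript (SD, n = 3 each). The opposite differences of Myl9 and Myl6 enter that sum with other weights. The Myl3 shares of the groups overlapped on this scale, at 16.8% to 17.6% in knockout and 17.2% to 18.8% in control libraries, while those of Myl9 and Myl6 did not. The pair shares also moved with the scale. Myl2 was 80.0% ± 0.44 of Myl2 plus Myl7 in knockout and 79.3% ± 2.52 in control ventricles. Myl3 was 51.5% ± 1.01 of Myl3 plus Myl4 in knockout and 52.7% ± 2.05 in control ventricles. For both pairs the groups overlapped. Regulatory chains took 61.0% ± 0.27 in knockout and 59.5% ± 0.48 in control ventricles (SD, n = 3 each), without overlap.

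**Figure D5:**
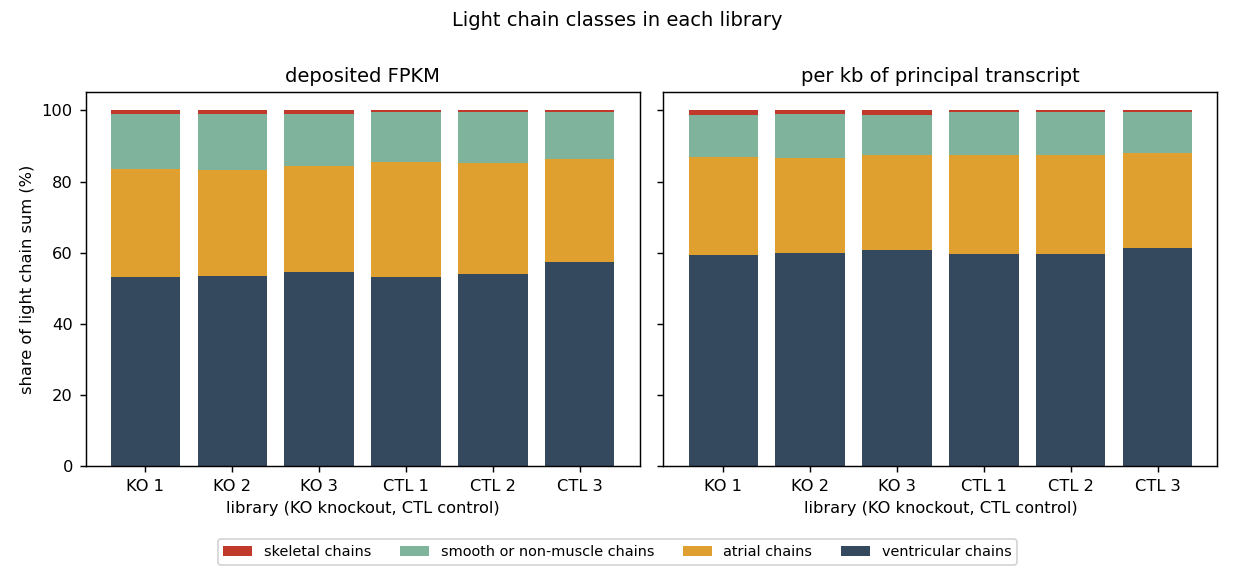
Stacked bars give the share of the ventricular, atrial, smooth or non-muscle and skeletal light chains in percent of the light chain sum for each knockout (KO) and control (CTL) library, by deposited FPKM (left) and per kb of principal transcript (right). Ventricular chains fill 53.2% to 54.7% of the knockout bars and 53.3% to 57.4% of the control bars on the left, and the thin skeletal band at the top is thicker in the 3 knockout libraries on both sides.

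Genes that act on the light chains did not pass the test. Listed were 13 genes for light chain kinases, phosphatase subunits, their regulators and the light chain interacting protein Mylip. Of these, 11 were tested and 0 were called by limma. Their median log2 change was 0.01, with 2 genes at an unadjusted p under 0.05. The other 9 had log2 changes of -0.13 to 0.07. Among them Mylk3, the cardiac light chain kinase, stood at 48.6, 52.5 and 70.0 FPKM in knockout and 54.7, 58.6 and 52.7 FPKM in control libraries. The skeletal kinase Mylk2 was too low to be tested, at 0.159 FPKM in knockout and 0.165 FPKM in control ventricles on average.

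The heavy chain partners gave no call either, with 0 of 5 tested genes among 13 listed, 1 of them, Myh7b, at an unadjusted p under 0.05, and a median log2 change of 0.02 (limma). Myh7b stood at 3.15, 3.49 and 3.45 FPKM in knockout and 4.88, 4.84 and 3.89 FPKM in control libraries (limma adjusted p = 0.127, and 0.0450 without control replicate 3). Myh6, the alpha cardiac heavy chain, stood at 168, 214 and 180 FPKM in knockout and 177, 206 and 106 FPKM in control libraries. The fast and embryonic skeletal heavy chain genes Myh1, Myh2, Myh3, Myh4 and Myh8 were too low to be tested. Myh3, the embryonic one, was at 0.439, 0.0510 and 0.0647 FPKM in knockout and 0.0268, 0.0835 and 0.650 FPKM in control libraries. Of the further light chain genes, Mylf-ps was called, Myl12b was not, and Myl10 was listed at 0 in all 6 libraries.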

How the data were processed

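RNA from E12.5 heart ventricles was sequenced in 3 knockout and 3 control libraries, grouped by their labels. TRIzol extraction and a NEBNext Ultra library kit are named in the labels' protocols. The authors deposited FPKM values, without read counts. Tools listed in the submitters' processing notes are featureCounts 1.5.0-p3, HISAT2 2.0.5, fastp and CASAVA, with the build mm10. How reads that fit several genes were counted is not given in the sources used here.

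GENCODE M21 held 54409 of the 54532 IDs, and of IDs with equal symbols only the most abundant was named. FPKM times exon length gave whole reads (within 0.02) for 98.1% to 98.5% of genes under 30 reads, which shows that the authors divided by all annotated exon bases. Intervals cover spread between libraries, and depth limits Mylpf and Myl6b most. Genes averaging 0.5 FPKM or more were tested two-sided on log2(FPKM + 1) in limma 3.58.1 (R 4.3.3) with genotype as sole term and a trended prior variance. Shares, exact permutation tests and figures used Python 3.11.15, scipy 1.17.1 and matplotlib 3.10.9. The fit was also run on simulated libraries in which every gene had the same extra spread between libraries. That run does not check the fit for genes with a larger spread.

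The members, lists and tests were chosen with earlier results of these data known. Named were the 10 members, Kdm1a and some genes of the other lists. For further light chains, heavy chains and genes acting on light chains, these were every called gene or else the 2 with the smallest p. Mylk3, Mylk2, the Myl6 pseudogenes, Myh3 and single marker genes were named after their values were seen. Principal transcript lengths and the adding of Mylf-ps reads to Myl1 were chosen after seeing the data. Alternatives were other pseudocounts, filters, scalings, denominators, lengths, a replicate block and leaving out each library. The 2 genes with the smallest p among those acting on the light chains are not reported here. Protein sequences were not used here.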

Additional observations from a re-analysis of the deposited data

How the results depend on the processing

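Mylpf and Myl1 were called higher and 0 light chain genes lower in all 15 alternative fits, with log2 changes of 1.72 to 2.08 and 1.01 to 1.09 when 1 library was left out. The labels do not say whether the replicate numbers pair the libraries. Same-numbered libraries deviated together with correlations of -0.002, 0.140 and 0.164 across genes. Knockout replicates 2 and 3 correlated best with the control replicate of the same number. Knockout replicate 1 correlated best with control replicate 3, at only 0.021, so pairing stays undecided. With the replicate block 220 genes were called higher and 64 lower, and Mylpf and Myl1 stayed called. Over all genes, 270 were called higher and 66 lower. These became 110 and 12 with all 25956 genes of a mean above 0 FPKM kept, and 132 and 48 with a minimum mean of 5 FPKM. They became 373 and 40 after rescaling to TPM, and 222 and 32 after rescaling to equal light chain sums. Leaving out 1 library gave 111 to 273 higher and 23 to 108 lower, with 273 and 108 without control replicate 3. Among members that were not called, signs turned. Myl2 differed by 0.061 (TPM), 0.11 (quantiles), 0.050 (without haemoglobin and mitochondrial genes) and 0.0046 (equal light chain sums). Myl3 differed by 0.042 (quantiles), and Myl7 by 0.0045 (TPM). Myl4 differed by 0.034, 0.078 and 0.023, and Myl12a by 0.028, 0.011 and 0.017 (TPM, quantiles, without haemoglobin and mitochondrial genes). Leaving out 1 library gave -0.084 to 0.019 for Myl2, -0.19 to 0.047 for Myl7, -0.11 to 0.040 for Myl12a and -0.034 to 0.44 for Myh6. The log2 ratio of shares turned for Myl2 without Myl7 in the sum (-0.014) and for the smooth or non-muscle class per kb of principal transcript (-0.012). Leaving out 1 library gave -0.029 to 0.062 for the Myl2 share, -0.067 to 0.027 for Myl4, -0.049 to 0.0051 for the ventricular class and -0.010 to 0.075 for Myl2 in Myl2 plus Myl7. The cause of these turns was not tested.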

Other observations

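Myl12b, the close neighbour of Myl12a on chromosome 17, is listed under 2 gene IDs whose models overlap. Its deposited level was far below that of Myl12a. The longer model stood at 1.52, 1.28 and 1.58 FPKM in knockout and 1.68, 1.54 and 2.54 FPKM in control libraries. The shorter model stood at 0.184, 0.215 and 0.233 FPKM in knockout and 0.226, 0.0936 and 0.0863 FPKM in control libraries. The shorter model covers 26.7% of the exon bases of the longer one and holds 25.4% of its 50-base stretches. How reads in shared exons were counted is not given, so the level of Myl12b is uncertain too.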
